A study of Mus musculus with 4 samples.

Results

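Bone marrow-derived dendritic cells (DCs) lacking both liver X receptors were compared with wild-type cells in the immature state, before any maturation stimulus. The comparison rests on 2 of the 4 arrays of the study: the LXR-DKO control array and the WT control array. It was made across every probe set that is not a manufacturer's control and carries a single gene symbol, which held for 34945 of 45037 such probe sets. These probe sets represent 18193 genes, of which 11728 were measured, meaning that at least 1 of both arrays reached a signal of 28.9, the pooled median of all signals, used here as a floor. The WT cells came from mice with both receptors, and the LXR-DKO cells from mice with combined deficiency of LXRalpha and LXRbeta, both on the strain written as C57/BL6 in the labels. Marrow was grown for 6 to 7 days in serum-containing medium with the growth factor GM-CSF at 20 ng/mL, non-adherent cells were enriched with magnetic beads against CD11c, and the control cells of both genotypes were then kept for 24 h with GM-CSF at 10 ng/mL. The remaining arrays hold cells of the same genotypes that also received the bacterial lipid LPS at 100 ng/mL for those 24 h. The labels do not give the age, sex or number of the mice, nor whether marrow was pooled, and they name no promoter or Cre that would limit the deficiency to DCs.

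LXRs are nuclear receptors that bind oxysterols, pair with the retinoid X receptor RXR and regulate genes of cholesterol export, lipoprotein handling and fatty acid synthesis. Without ligand they can also hold target genes down through corepressors. In myeloid cells they are known for cholesterol efflux, for the uptake of dying cells and for restraint of inflammatory genes. Cells grown from marrow with GM-CSF are a mixed population that includes DCs and macrophages at several stages.

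With 1 array per group no difference has a replicate check, and no p-value was computed. All values are deposited MAS5 signals, and a ratio is the log2 ratio of LXR-DKO control over WT control, so that 1 is a 2-fold higher and -1 a 2-fold lower signal. Signals below the floor were set to it, and such a ratio is a limit on its size, given as "at least" or "or lower". The only error these data offer is how far probe sets for 1 gene differ in their log2 ratio within this pair of arrays, an SD of 0.45 over 4711 genes. It does not cover differences between cultures, mice or hybridisations. On both arrays the mean signal, trimmed by 2% at each end, had been scaled to 200, while 49.0% of probe sets reached the floor on the WT array and 50.8% on the LXR-DKO array.

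At this threshold 1487 genes passed 2-fold upward in LXR-DKO cells, 12.7% of those measured, and 1088 genes were at least 2-fold lower, 9.28%. The median ratio of all measured genes was 0.05, and the 25th and 75th percentiles of genes reaching the floor on both arrays were -0.41 and 0.55, and 79.0% of these 10119 genes lay within 2-fold. The balance of the directions depended on the scaling, since higher genes made up 57.7% of the 2-fold genes as deposited, 44.1% with the 75th percentiles of the arrays made equal and 71.3% when they were scaled to the hybridisation controls. Those scalings moved the median ratio of all measured genes to -0.12 and 0.23. Medians of the gene lists are therefore read against 0.05, and their 2-fold counts against 12.7% higher and 9.28% lower. At 4-fold, 382 genes (3.26%) were higher and 305 (2.6%) lower, and at 16-fold 56 genes (0.477%) were higher and 26 (0.222%) lower. The share of 2-fold genes was 19.4% for genes with a mean signal between the floor and 100, 24.8% up to 300, 21.2% up to 1000 and 15.9% above that.

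**Figure D1:**
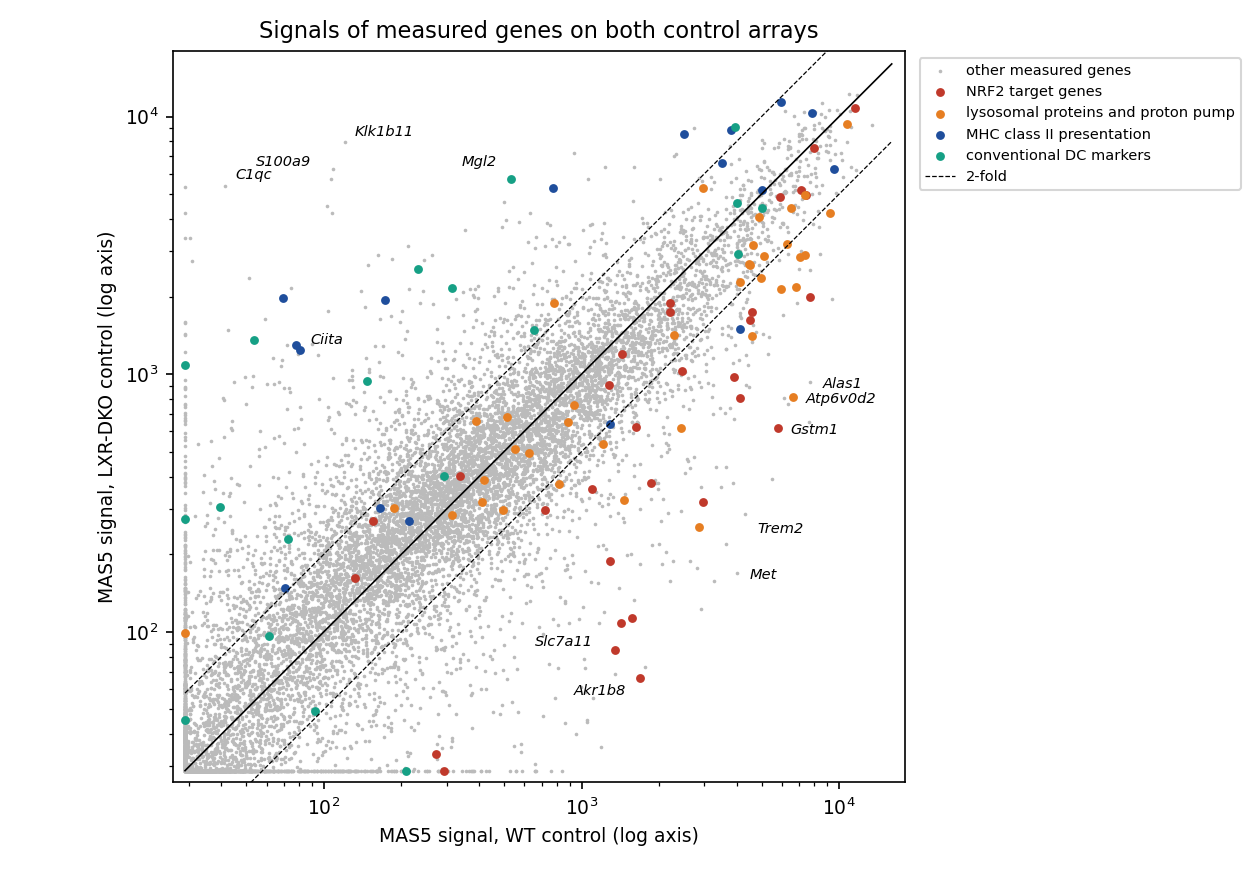
MAS5 signals of the measured genes in WT control (x axis, log scale) and LXR-DKO control (y axis, log scale); each point is 1 gene, signals below 28.9 are drawn at that floor, the solid line marks equal signals and the dashed lines 2-fold. NRF2 target genes and lysosomal genes lie mostly under the solid line and MHC class II and conventional DC genes mostly over it, with C1qc at 41.4 and 5386.1 and Akr1b8 at 1693.6 and 65.9 among the most distant.

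Of the targeted genes, only Nr1h3, which encodes LXRalpha, had a probe set with a single symbol. Its signal was 108.6 in WT and 40.4 in LXR-DKO cells (log2 ratio -1.43). The position of that probe set against the deletion is unknown here, and one lying outside would check nothing. Nr1h2, which encodes LXRbeta, was not analysed here. The chromosomal neighbours of both genes were examined as well. Of the 10 genes on each side of Nr1h3, 18 were measured, none differed 2-fold, and their median log2 ratio was 0.12. The largest ratio among them belonged to Spi1, which encodes the myeloid transcription factor PU.1, with signals of 1367.9 and 2726.3 (log2 ratio 0.99). Around Nr1h2, 10 genes were measured, 3 were at least 2-fold higher and 1 was lower, with a median of 0.43. Spib, a factor related to PU.1, read 26.6 in WT, below the floor, and 274.9 in LXR-DKO cells (log2 ratio at least 3.25). Pold1, the catalytic subunit of a replicative DNA polymerase, stood at 171.1 and 535.8 (log2 ratio 1.65), and the aspartic protease gene Napsa at 2335.0 and 7136.5 (log2 ratio 1.61). Atf5, a stress-induced transcription factor on the same stretch, was at 528.0 and 136.1 (log2 ratio -1.96).

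Genes that report the sex of the animals, of which the Y-linked ones were chosen after their values were seen, differed between the arrays. Xist, the RNA that silences an X chromosome, read 30.8 on the WT and 2750.0 on the LXR-DKO array (log2 ratio 6.48). Of the Y-linked genes, Eif2s3y stood at 736.6 and 279.6 (log2 ratio -1.40), Uty at 300.9 and 69.7 (log2 ratio -2.11) and Kdm5d at 126.2 and 56.1 (log2 ratio -1.17). The labels give no sex, so genotype and the sex of the mice cannot be told apart in this pair. Leaving out all genes on X and Y left 1461 genes past 2-fold upward and 1044 downward.

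Markers of cells other than DCs also moved with the genotype, and these values stand beside every result that follows. In bulk RNA, fewer cells of a type and less RNA per cell cannot be told apart. Of 30 listed neutrophil and granulocyte precursor genes, 23 were measured, 13 were at least 2-fold higher and 2 lower (median log2 ratio 1.81). Their summed signal was 17394.3 in WT and 32854.5 in LXR-DKO cells. A gene that reached the floor on the LXR-DKO array alone can only read as higher. For 9 of the 23 genes the ratio is a limit, and the 14 that reached the floor on both arrays had a median of 0.72. Ngp, a granule protein of neutrophil precursors, read 17.5 in WT, below the floor, and 3361.7 in LXR-DKO cells (log2 ratio at least 6.86). S100a9, a calcium-binding protein abundant in neutrophils and monocytes, stood at 106.4 and 5734.3 (log2 ratio 5.75). Granule genes went apart from each other: Ltf, lactoferrin, was at 15.4 and 947.9 (log2 ratio at least 5.04), whereas Mmp8, a neutrophil collagenase, was bright on both arrays at 7882.0 and 3829.7 (log2 ratio -1.04). Ctsg, an azurophil granule protease, went from 155.6 to 47.5 (log2 ratio -1.71), and Gfi1 was not measured.

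Mast cell, basophil and eosinophil genes were also higher, 8 of 15 measured and none lower (median log2 ratio 1.02), with summed signals of 954.5 and 3222.6. For 7 of the 15 the ratio is a limit, and the 8 that reached the floor on both arrays had a median of 1.00. Alox15, a lipoxygenase of eosinophils and alternatively activated macrophages, had signals of 3.0, below the floor, and 748.3 (log2 ratio at least 4.69). Siglecf, a sialic acid receptor of eosinophils, stood at 114.4 and 699.6 (log2 ratio 2.61). Prg2 and Epx, which encode eosinophil granule proteins, were below the floor in WT cells. Prg2 reached 135.6 in LXR-DKO cells (log2 ratio at least 2.23) and Epx 128.7 (log2 ratio at least 2.15). B cell genes were 2-fold higher in 10 of 17 measured and lower in 2 (median log2 ratio 1.38). For 7 of the 17 the ratio is a limit, and the 10 that reached the floor on both arrays had a median of 0.31. The summed signal of the list was higher in WT, at 9026.0, than in LXR-DKO cells, at 6113.0. That sum was dominated by Il7r, the interleukin 7 receptor, which dendritic cells can also express, at 6347.5 and 767.0 (log2 ratio -3.05). Cd79a, part of the B cell receptor, went from 4.9, below the floor, to 114.6 (log2 ratio at least 1.99), and Pax5, the B lineage factor, was near the floor on both arrays at 35.5 and 51.0 (log2 ratio 0.52). Probe sets for Ighm, the heavy chain of IgM, disagreed, with 8 measured and log2 ratios from -4.50 to 4.30. Of 24 T and NK cell genes on the array only 7 were measured, with Cd3d, Cd3e and Cd3g unmeasured, 3 higher, 2 lower and a median of 0.68 that turned to -1.62 with a floor at the 75th percentile. Zap70, a kinase of T cell receptor signalling, stood at 87.0 and 233.2 (log2 ratio 1.42), and the T cell adaptor gene Lat at 544.9 and 79.6 (log2 ratio -2.78).

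Fibroblast and stromal genes were lower in 6 of 19 measured and higher in 3 (median log2 ratio -0.65), with summed signals of 13189.2 and 13971.7. For 9 of the 19 the ratio is a limit, and the 10 that reached the floor on both arrays had a median of -0.47. With a floor at the 75th percentile the median of the list was -0.14. Col1a2, a chain of type I collagen, went from 314.6 to 38.6 (log2 ratio -3.03), and Sparc, a matrix protein, from 159.5 to 9.3, below the floor (log2 ratio -2.46 or lower). Fn1, fibronectin, which macrophages also make, went the other way at 183.5 and 2806.1 (log2 ratio 3.93), as did the epithelial and DC adhesion gene Epcam at 68.6 and 1139.2 (log2 ratio 4.05). Of 13 measured plasmacytoid DC genes 5 were 2-fold higher and 2 lower (median log2 ratio 0.49). For 4 of the 13 the ratio is a limit, and the 9 that reached the floor on both arrays had a median of 0.09. Of 10 erythroid and megakaryocyte genes 2 were higher and 2 lower (median 0.55). Whether the cultures held different shares of these cells was not tested.

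The label of the cells was checked against DC and macrophage markers. Itgax, which encodes CD11c, the antigen used for the enrichment, was bright on both arrays at 5012.2 in WT and 4404.5 in LXR-DKO cells (log2 ratio -0.19). Of 22 listed conventional DC markers 19 were measured, 11 passed 2-fold upward in LXR-DKO cells and 1 downward (median log2 ratio 1.21), while Flt3 and Xcr1 did not reach the floor. Zbtb46, the transcription factor that separates conventional DCs from macrophages, had signals of 39.4 and 305.9 (log2 ratio 2.96), and its 4 measured probe sets lay between 1.14 and 2.96 in log2 ratio. Itgae, which encodes CD103, an integrin of a DC subset, stood at 53.5 and 1354.9 (log2 ratio 4.66) and was near the floor in WT cells. Dpp4, a peptidase of the same subset, was below the floor in WT at 15.9 and reached 1085.2 (log2 ratio at least 5.23). Mgl2 and Clec10a, galactose-type lectins of DCs and of alternatively activated macrophages, were higher as well. Mgl2 went from 534.1 to 5721.2 (log2 ratio 3.42) and Clec10a from 232.9 to 2566.8 (log2 ratio 3.46). Kmo, an enzyme of tryptophan breakdown, stood at 146.8 and 940.4 (log2 ratio 2.68), and the inhibitory receptor gene Btla at 72.5 and 229.2 (log2 ratio 1.66). Ly75, which encodes the endocytic receptor DEC-205, was the exception, at 208.0 in WT and 24.7 in LXR-DKO cells, below the floor (log2 ratio -2.85 or lower).

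Macrophage and monocyte genes had no common direction, with 5 of 20 measured at least 2-fold higher and 6 lower (median log2 ratio -0.11, which turned to 0.10 under scaling to hybridisation controls), and summed signals of 66328.8 and 71301.5. Several defining members were bright and alike on both arrays. Csf1r, the receptor for macrophage colony-stimulating factor, stood at 7831.1 and 7445.8 (log2 ratio -0.07), and the lysozyme gene Lyz2 at 8749.6 and 8903.6 (log2 ratio 0.03). Adgre1, which encodes the F4/80 antigen, was at 4231.5 and 5446.2 (log2 ratio 0.36). Trem2, a lipid-sensing receptor of macrophages, was far apart at 4302.2 and 286.4 (log2 ratio -3.91), although its second probe set had a log2 ratio of -0.52. Marco, a scavenger receptor, went from 273.6 to 32.2 (log2 ratio -3.09), and the mannose receptor gene Mrc1 from 1939.9 to 378.9 (log2 ratio -2.36). In the other direction, Fcgr1, the high-affinity IgG receptor, stood at 643.0 and 2689.5 (log2 ratio 2.06), and Ccr2, the monocyte chemokine receptor, at 736.1 and 2104.7 (log2 ratio 1.52). The largest ratio of the list was that of C1qa, which is also counted among the complement genes described further on. It was below the floor in WT and at 5335.4 in LXR-DKO cells (log2 ratio at least 7.53). That signal is larger than the gap between both sums, so the higher LXR-DKO sum depends on it.

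**Figure D2:**
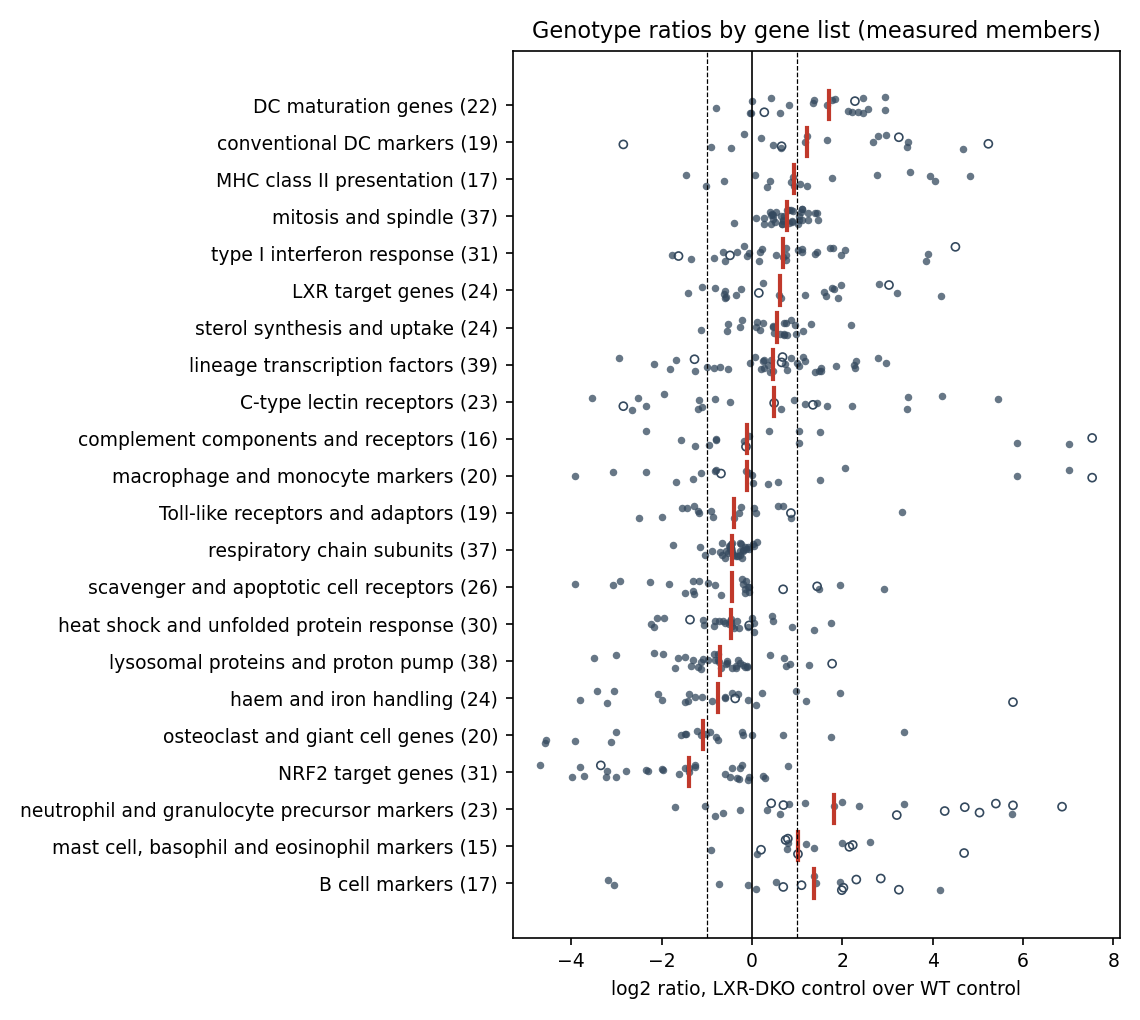
Log2 ratio of LXR-DKO control over WT control for the measured members of 22 gene lists, 1 point per gene, with the number measured in parentheses; open circles are limits with 1 signal below the floor, red bars are medians and dashed lines mark 2-fold. NRF2 targets have the lowest median, -1.39, and neutrophil genes the highest, 1.81, followed by DC maturation genes at 1.72.

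The direct targets of LXR were examined next. More of them were higher than lower in cells without the receptors: 11 of 24 measured passed 2-fold upward and 2 downward, and the median log2 ratio was 0.61. The lowest ratio of the list, -1.43, was that of Nr1h3, which is itself a targeted gene. The promoters of 3 of the higher genes, Abca1, Srebf1 and Fasn, are shown because they are the only ones of the 15 LXR targets with a promoter in the table that hold a full match to the direct repeat with a 4-base spacer bound by LXR and RXR, searched on both strands as GGTNAN, any 4 bases and then GGTCA. Each line gives the 250 bases before the transcription start, 5' to 3' on the strand of the gene, with the match in capitals; all 3 matches run opposite to the gene, so the capitals show the reverse complement of the repeat. Sequences are from RefSeq, mouse assembly GRCm38.p6. They lie on the minus strand at chr4:53159896-53160145 for Abca1, chr11:60210472-60210721 for Srebf1 and chr11:120824548-120824797 for Fasn.
Abca1: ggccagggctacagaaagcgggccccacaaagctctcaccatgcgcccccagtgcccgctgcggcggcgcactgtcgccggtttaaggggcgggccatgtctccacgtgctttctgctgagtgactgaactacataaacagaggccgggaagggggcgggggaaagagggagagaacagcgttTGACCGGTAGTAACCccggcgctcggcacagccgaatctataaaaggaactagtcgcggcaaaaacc
Srebf1: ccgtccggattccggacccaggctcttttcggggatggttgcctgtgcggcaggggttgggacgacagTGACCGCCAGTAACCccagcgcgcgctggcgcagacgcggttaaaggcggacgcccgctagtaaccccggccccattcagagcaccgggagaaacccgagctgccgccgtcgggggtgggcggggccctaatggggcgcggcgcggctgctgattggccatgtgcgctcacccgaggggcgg
Fasn: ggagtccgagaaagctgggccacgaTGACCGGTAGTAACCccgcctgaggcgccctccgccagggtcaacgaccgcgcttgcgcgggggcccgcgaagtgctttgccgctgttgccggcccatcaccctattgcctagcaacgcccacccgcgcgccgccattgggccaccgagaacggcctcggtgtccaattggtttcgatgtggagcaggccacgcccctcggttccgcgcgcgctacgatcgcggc
The match begins 67 bases before the start in Abca1, 182 in Srebf1 and 225 in Fasn. The same letters occur within 300 bases around the start (250 before, 50 after) of 61 of 27025 genes, 0.226%, and of 15 of 9530 genes measured here, 0.157%. A match describes letters in this window and is neither a shown binding site nor a cause.

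Abca1, which exports cholesterol and phospholipid to apolipoprotein acceptors, had signals of 81.1 in WT and 744.9 in LXR-DKO cells (log2 ratio 3.20), and its 3 probe sets lay between 1.63 and 3.20. Srebf1, the factor that drives fatty acid synthesis genes, stood at 311.6 and 941.7 (log2 ratio 1.60). Fasn, fatty acid synthase, went from 750.4 to 2322.4 (log2 ratio 1.63). The elongase gene Elovl6, of the same route, was higher as well at 162.9 and 610.4 (log2 ratio 1.91). Scd1, a desaturase, stood at 266.3 and 1880.0 (log2 ratio 2.82), while the related Scd2 was bright on both arrays at 5020.0 and 7565.2 (log2 ratio 0.59). Among genes of lipoproteins, Pltp, which transfers phospholipids, went from 71.8 to 1302.0 (log2 ratio 4.18, with 4.85 for its other probe set). Apoc2, the activator of lipoprotein lipase, stood at 39.1 and 137.5 (log2 ratio 1.81), and Apoe was below the floor in WT cells at 14.7 and at 236.4 in LXR-DKO cells (log2 ratio at least 3.03).

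Other targets were flat or lower. Abcg1, the partner of Abca1 in cholesterol export, stood at 1909.9 and 1242.7 (log2 ratio -0.62), and Mylip, which degrades the LDL receptor, at 476.0 and 373.6 (log2 ratio -0.35). The phospholipid-remodelling gene Lpcat3 was at 986.5 and 1166.9 (log2 ratio 0.24). Mertk, a receptor for dying cells, went from 365.8 to 207.3 (log2 ratio -0.82), and Smpdl3a, a secreted phosphodiesterase, from 2263.9 to 1051.4 (log2 ratio -1.11). Lpl, lipoprotein lipase, was bright on both arrays at 10257.0 and 6775.1 (log2 ratio -0.60).

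Sterol synthesis genes leaned upward as a list, most by less than 2-fold, and 19 of 24 measured lay above 0 (median log2 ratio 0.56). At least 2-fold higher were 3 and lower 1, beside 12.7% and 9.28% of all measured genes. The largest ratios belonged to the regulators. Srebf2, the factor that switches on cholesterol synthesis, had signals of 385.1 and 1762.6 (log2 ratio 2.19, with 2.20 for its other probe set), and Scap, which escorts it from the endoplasmic reticulum, stood at 287.3 and 714.0 (log2 ratio 1.31). Stard4, a cholesterol carrier, was at 742.4 and 1622.0 (log2 ratio 1.13). The enzymes themselves were closer to equal: Idi1, isopentenyl diphosphate isomerase, stood at 1558.8 and 2828.7 (log2 ratio 0.86) and Hmgcs1, HMG-CoA synthase, at 2833.0 and 4597.1 (log2 ratio 0.70). Npc1, which releases cholesterol from lysosomes, went from 817.3 to 374.9 (log2 ratio -1.12).

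Of 9 measured genes that make, bind or sense oxysterols, 2 were at least 2-fold higher and 3 lower (median log2 ratio -0.27). Cyp27a1, which makes 27-hydroxycholesterol, stood at 148.5 and 523.3 (log2 ratio 1.82), whereas Ch25h, which makes 25-hydroxycholesterol, went from 218.4 to 86.8 (log2 ratio -1.33). Gpr183, a migration receptor for a dihydroxylated oxysterol, had signals of 205.7 and 1365.0 (log2 ratio 2.73, with 2.06 for its other probe set). The oxysterol-binding protein genes Osbpl3 and Osbpl8 were lower. Osbpl3 went from 548.4 to 160.3 (log2 ratio -1.77) and Osbpl8 from 1523.3 to 601.9 (log2 ratio -1.34).

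Among 19 measured nuclear receptors and their partners, 4 were 2-fold higher and 2 lower (median log2 ratio 0.28), Nr1h3 itself being one of the latter. The RXR partners of LXR went apart: Rxrb stood at 223.2 and 495.9 (log2 ratio 1.15) and Rxra at 210.9 and 115.1 (log2 ratio -0.87). Nr4a3, an inducible orphan receptor, was at 125.2 and 950.4 (log2 ratio 2.92), and Rara, a retinoic acid receptor, at 115.4 and 302.5 (log2 ratio 1.39). Pparg, the fatty acid receptor PPAR gamma, went from 171.0 to 83.4 (log2 ratio -1.04). Its target and lipid-storage genes were lower in 6 of 13 measured, Pparg included, and higher in 1 (median log2 ratio -0.79). Fabp4, a fatty acid carrier, stood at 707.9 and 46.9 (log2 ratio -3.92, with -3.39 for its other probe set), and the lipase inhibitor gene Angptl4 at 313.0 and 37.7 (log2 ratio -3.05). Cd36, a fatty acid and oxidised lipoprotein receptor, was among the brightest WT signals at 9374.7 and stood at 1964.0 in LXR-DKO cells (log2 ratio -2.25), with 3 probe sets between -3.73 and -2.25. Plin2, which coats lipid droplets, went from 6850.4 to 1891.8 (log2 ratio -1.86). Aldh1a2, which makes retinoic acid, was the member that went up, at 44.7 and 936.2 (log2 ratio 4.39).

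The clearest downward list was that of NRF2 targets, genes of the defence against oxidants and electrophiles that the factor NRF2 switches on through antioxidant response elements. Of 31 measured, 19 were at least 2-fold lower in LXR-DKO cells, none was 2-fold higher, 28 lay below 0 and the median log2 ratio was -1.39. Their summed signal was 96891.8 in WT and 51279.7 in LXR-DKO cells. Nfe2l2, which encodes NRF2, was itself near equal at 2197.4 and 1745.1 (log2 ratio -0.33), as was its inhibitor Keap1 at 337.4 and 400.8 (log2 ratio 0.25).

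The lower genes included enzymes that reduce carbonyls and quinones and enzymes that break down haem. Akr1b8, an aldo-keto reductase, had signals of 1693.6 in WT and 65.9 in LXR-DKO cells (log2 ratio -4.68). Nqo1, a quinone reductase, stood at 1420.1 and 108.3 (log2 ratio -3.71). Hmox1, the inducible haem oxygenase, went from 2952.9 to 319.3 (log2 ratio -3.21), and Blvrb, which reduces its product biliverdin, from 3896.2 to 972.2 (log2 ratio -2.0). Genes of glutathione supply were lower along the route. Slc7a11, the cystine importer, went from 1343.5 to 84.7 (log2 ratio -3.99, with -4.0 for its other probe set). Gclm and Gclc encode the subunits of the rate-limiting ligase of glutathione synthesis. Gclm stood at 4110.6 and 807.2 (log2 ratio -2.35) and Gclc at 1094.4 and 358.1 (log2 ratio -1.61).

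Of 7 measured glutathione S-transferase genes in the lists, 5 were at least 2-fold lower, none was higher, and the median log2 ratio was -2.78. Such enzymes couple glutathione to reactive compounds. Gstm1 was among the brightest WT signals at 5785.4 and stood at 619.8 in LXR-DKO cells (log2 ratio -3.22), with all 4 probe sets between -3.72 and -2.08. Gstm2 went from 1567.7 to 112.8 (log2 ratio -3.80), and Gsta3 from 293.8 to 13.1, below the floor (log2 ratio -3.35 or lower). Gstp1 was near equal at 2202.5 and 1882.5 (log2 ratio -0.23), and Gstm5 stood at 132.2 and 162.0 (log2 ratio 0.29). The thioredoxin arm differed less. Txnrd1, thioredoxin reductase, was at 4507.4 and 1616.6 (log2 ratio -1.48), Srxn1, sulfiredoxin, at 1857.6 and 379.1 (log2 ratio -2.29), and Txn1, thioredoxin, at 7106.2 and 5192.3 (log2 ratio -0.45). Enzymes that supply NADPH went from near equal to far apart: Tkt, transketolase, was at 7982.7 and 7573.3 (log2 ratio -0.08), Pgd at 7463.4 and 4967.4 (log2 ratio -0.59) and Me1, malic enzyme, at 271.5 and 33.5 (log2 ratio -3.02).

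The core of the antioxidant response element, searched as TGACNNNGC on both strands, was present in the 300-base promoters of 6 of the 16 lower NRF2 targets with a promoter, 37.5%, beside 17.2% of all 9530 measured genes and 14% of all 27025 genes. Among all measured NRF2 targets with a promoter 9 of 27 held it, 33.3%, including Gstm5, Pgd and Nfe2l2, which were not 2-fold lower. Over all genes it was in 18.9% of those at least 2-fold higher and 20.2% of those at least 2-fold lower. Lysosomal genes held the core in 8 of 32, 25%, and a link between the core and a lower signal was not tested. The stretches around it are shown for 5 lower genes in which it lies before the start, with 10 bases on each side and the match in capitals, read 5' to 3' on the strand of the gene, from RefSeq on GRCm38.p6. They lie at chr3:122245413-122245441 (plus strand) for Gclm, chr10:82859104-82859132 (plus) for Txnrd1, chr1:21240454-21240482 (plus) for Gsta3, chr6:138140461-138140489 (plus) for Mgst1 and chr9:86695902-86695930 (minus) for Me1.
Gclm: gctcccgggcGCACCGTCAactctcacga
Txnrd1: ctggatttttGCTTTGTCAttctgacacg
Gsta3: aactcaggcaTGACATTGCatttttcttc
Mgst1: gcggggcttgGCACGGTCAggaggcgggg
Me1: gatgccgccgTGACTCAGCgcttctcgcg
The match begins 134 bases before the start in Gclm, 92 in Txnrd1, 121 in Gsta3, 56 in Mgst1 and 6 in Me1, and it runs with the gene in Gsta3 and Me1 and opposite to it in the others. Mgst1, a membrane-bound glutathione transferase, had signals of 7731.5 and 1986.8 (log2 ratio -1.96). In genes without a match the letters are absent from this window only.

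**Figure D3:**
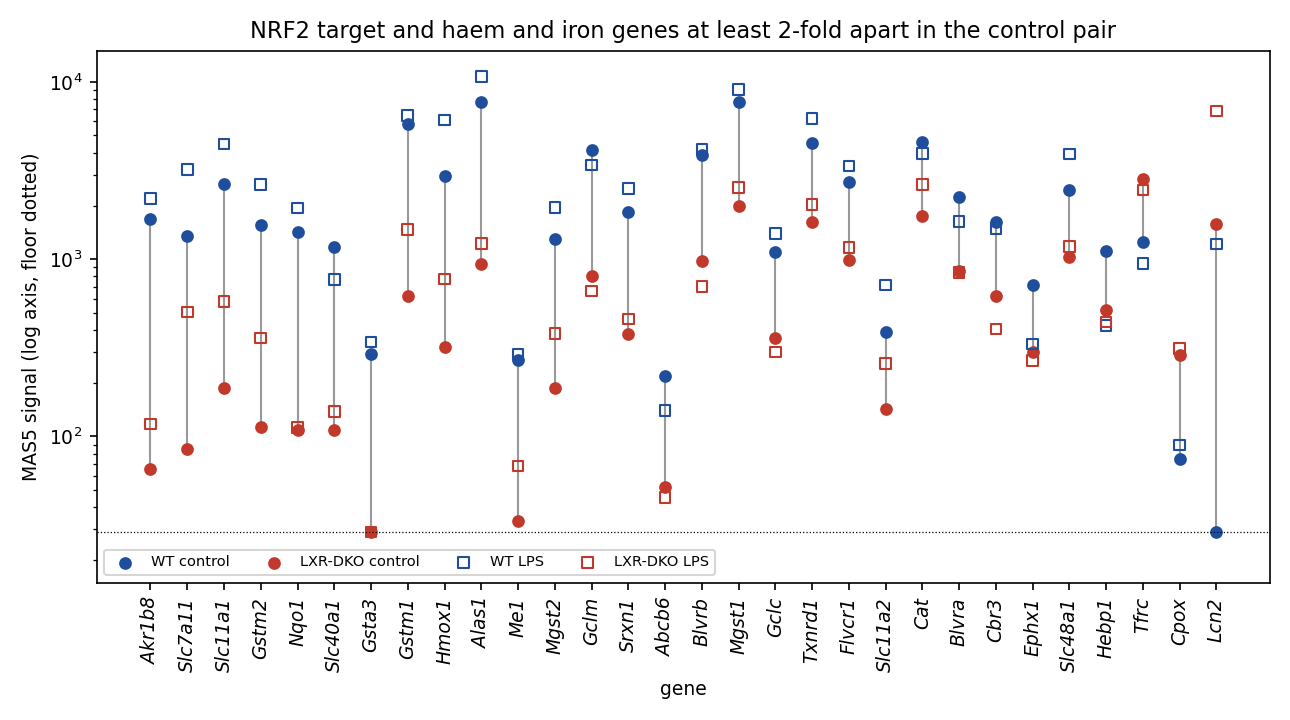
MAS5 signals on all 4 arrays (log axis, 1 array per symbol) of the NRF2 target and haem and iron genes that differ at least 2-fold in the control pair, ordered by their control ratio; grey lines join the control signals, and signals below the floor of 28.9 are drawn on the dotted line. In Nqo1 the WT control signal is 1420.1 and the LXR-DKO control signal 108.3, and the LPS-treated arrays keep the same order for all genes shown but Hebp1, with LPS signals of 421.9 and 442.2.

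Haem and iron genes overlapped with this list and went the same way: of 24 measured, 11 were at least 2-fold lower and 3 higher (median log2 ratio -0.74). Exporters were among the lower members. Slc40a1, ferroportin, the iron exporter, had signals of 1167.1 in WT and 108.6 in LXR-DKO cells (log2 ratio -3.43, with -3.07 for its other probe set). Slc11a1, which pumps iron and manganese out of phagosomes, stood at 2648.2 and 188.0 (log2 ratio -3.82), and Flvcr1, a haem exporter, at 2732.3 and 984.9 (log2 ratio -1.47). Uptake genes went opposite ways. The importer gene Slc11a2 stood at 386.1 and 143.6 (log2 ratio -1.43), and the transferrin receptor gene Tfrc at 1244.3 and 2849.3 (log2 ratio 1.20), with 3 probe sets between 1.20 and 1.84. Ferritin heavy chain, Fth1, was near the top of both arrays at 11481.2 and 10759.9 (log2 ratio -0.09). In haem synthesis, Alas1, the first and rate-limiting enzyme, went from 7718.2 to 934.3 (log2 ratio -3.05), and its other probe set gave -5.79. Cpox, a later enzyme, went the other way at 75.1 and 287.8 (log2 ratio 1.94). Lcn2, a siderophore-binding protein that is also a neutrophil granule gene and counted among those markers, stood at 11.9, below the floor, and 1583.8 (log2 ratio at least 5.78).

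Lysosomal genes were lower as a group. Of 38 measured, 13 were at least 2-fold lower and 2 higher, 32 lay below 0, and the median log2 ratio was -0.71. The lists held 9 measured genes with an Atp6 name, of the proton pump that acidifies lysosomes. All of them lay below 0, from -3.02 to -0.76, and 6 were at least 2-fold lower. Pump genes outside the lists or with other names were not counted here. Atp6v0d2, a subunit known from osteoclasts, had signals of 6621.3 and 818.7 (log2 ratio -3.02, with -2.90 for its other probe set). Atp6v1a, the catalytic subunit, went from 4598.8 to 1401.3 (log2 ratio -1.71), and Atp6v1h from 2425.3 to 620.0 (log2 ratio -1.97). Atp6v0d1, the widely expressed counterpart of Atp6v0d2, stood at 5120.2 and 2882.1 (log2 ratio -0.83).

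Hydrolases differed by enzyme. Gla, alpha-galactosidase, stood at 2865.3 and 254.5 (log2 ratio -3.49), and Lipa, the acid lipase that frees cholesterol from its esters, at 6791.8 and 2175.1 (log2 ratio -1.64). Ids, which degrades glycosaminoglycans, was among the higher ones at 785.0 and 1895.0 (log2 ratio 1.27), and the mannosidase gene Man2b1 stood at 2961.8 and 5277.0 (log2 ratio 0.83). Membrane proteins were moderately lower, with Lamp1 at 6509.8 and 4397.0 (log2 ratio -0.57) and Cd68 at 7043.9 and 2836.3 (log2 ratio -1.31). The probe sets of Lamp2 did not point one way, from -1.24 to 0.34. Of the factors that drive lysosomal genes, Mitf went from 1464.4 to 325.5 (log2 ratio -2.17), while Tfeb stood at 186.3 and 303.2 (log2 ratio 0.70) and Tfe3 at 514.7 and 681.6 (log2 ratio 0.41). Tfec, a member of the same family that belongs to the lineage factors described further on, was at 3341.1 and 435.7 (log2 ratio -2.94).

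Cathepsins and cystatins had 3 of 20 measured higher and 3 lower (median log2 ratio -0.38). Several bright members were lower by less than 2-fold on the probe set used. Ctsb stood at 10386.8 and 5842.6 (log2 ratio -0.83), Ctsl at 8311.4 and 4315.0 (log2 ratio -0.95) and Ctsd at 8117.4 and 5375.1 (log2 ratio -0.59). Other probe sets of Ctsb ranged from -2.53 to -0.70, with 1 of them at 2489.1 and 445.3 (log2 ratio -2.48). Ctsk, the collagen-degrading cathepsin of osteoclasts, was far apart at 1050.2 and 44.5 (log2 ratio -4.56). Ctse, an aspartic protease of DCs, went from 69.6 to 1971.6 (log2 ratio 4.82, but 0.94 on its other probe set). The granulocyte stefin genes Stfa2l1 and Stfa3 were below the floor in WT cells and at 1217.9 and 555.7 in LXR-DKO cells. Stfa2l1 was also counted among the neutrophil markers.

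Genes of osteoclasts and of multinucleated giant cells were lower in 11 of 20 measured and higher in 2 (median log2 ratio -1.08). They share several members with the lysosomal and macrophage lists. Acp5, the tartrate-resistant acid phosphatase, stood at 947.8 and 346.4 (log2 ratio -1.45), and Tcirg1, a proton pump subunit of the resorbing membrane, at 2626.0 and 890.3 (log2 ratio -1.56). Of the fusion receptors, Ocstamp stood at 311.7 and 35.8 (log2 ratio -3.12) and Dcstamp at 2271.7 and 1198.4 (log2 ratio -0.92). Fos, the AP-1 factor required for osteoclast formation, went from 1756.8 to 73.3 (log2 ratio -4.58). Nfatc1, the master factor of osteoclasts, pointed the other way at 287.2 and 963.8 (log2 ratio 1.75), although its 5 probe sets ranged from -0.37 to 1.77. Tnfrsf11a, the receptor RANK, was near equal at 89.6 and 77.4 (log2 ratio -0.21).

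Matrix metalloproteinases and their inhibitors were lower in 6 of 22 measured and higher in 3 (median log2 ratio -0.38). Mmp13, a collagenase, stood at 3652.3 and 434.4 (log2 ratio -3.07), and Mmp19 at 2123.3 and 204.5 (log2 ratio -3.38, with -3.42 for its other probe set). Mmp12, the macrophage elastase, was bright and alike on both arrays at 9158.8 and 8314.8 (log2 ratio -0.14). Mmp9, a gelatinase of neutrophils and migrating DCs, went from 37.4 to 384.7 (log2 ratio 3.36). Timp1, an inhibitor, stood at 630.3 and 131.1 (log2 ratio -2.27), and the urokinase receptor gene Plaur at 5080.7 and 1426.2 (log2 ratio -1.83).

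Complement genes had no common direction, with 6 of 16 measured at least 2-fold higher and 3 lower (median log2 ratio -0.10, which turned to 0.07 under scaling to hybridisation controls and to 0.43 with a floor at the 75th percentile). The genes of the C1q chains, which open the classical pathway and tag dying cells, were near or under the floor in WT cells. C1qa stood at 18, below the floor, and 5335.4 (log2 ratio at least 7.53), and C1qc at 41.4 and 5386.1 (log2 ratio 7.02). C1qb was at 108.4 and 6280.6 (log2 ratio 5.86), with all 3 probe sets between 5.62 and 5.97. The PU.1 core GAGGAAGT, searched on both strands, was found in 1 of 10 complement genes with a promoter, C1qc. It was in 3.95% of the 9530 measured genes and in 3.69% of all 27025 genes. A link between the core and the C1q signals was not tested. The C1qc match is shown with 10 bases on each side, from chr4:136893092-136893119 on the minus strand of GRCm38.p6, before the start and opposite to the gene.
C1qc: gacggcagacACTTCCTCattttggcac
Cfp, properdin, which stabilises the alternative pathway, stood at 2023.3 and 5724.2 (log2 ratio 1.5). Cd93, a receptor of myeloid cells once taken for a C1q receptor, went from 3590.1 to 706.2 (log2 ratio -2.35), with 4 probe sets between -2.68 and -2.11. C3ar1, the C3a receptor, stood at 2842.9 and 1191.4 (log2 ratio -1.25) and C5ar1, the C5a receptor, at 208.0 and 427.9 (log2 ratio 1.04).

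Receptors for modified lipoproteins and dying cells were lower in 10 of 26 measured and higher in 4 (median log2 ratio -0.45). Lrp1, a large endocytic receptor, stood at 1504.4 and 198.5 (log2 ratio -2.92, but -0.30 on its other probe set), and Msr1, a class A scavenger receptor, at 4080.8 and 1137.3 (log2 ratio -1.84). Mfge8, which bridges phosphatidylserine to integrins, went from 7333.2 to 2948.4 (log2 ratio -1.31). Of the TAM receptors, Axl stood at 1191.7 and 3345.0 (log2 ratio 1.49) while Mertk was given above with the LXR targets at -0.82. Their ligands were dimmer, with Pros1 at 260.8 and 106.8 (log2 ratio -1.29) and Gas6 at 62.6 and 31.8 (log2 ratio -0.98). Trem1, an activating receptor of neutrophils and monocytes, was at 129.1 and 985.3 (log2 ratio 2.93).

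C-type lectin receptors split evenly, with 9 of 23 measured at least 2-fold higher and 9 lower (median log2 ratio 0.49, which turned to -0.23 with a floor at the 75th percentile of signals). Receptors for fungi and damaged cells were among the lower ones. Clec4d stood at 7660.2 and 653.7 (log2 ratio -3.55) and its partner Clec4e, the receptor Mincle, at 2075.8 and 327.5 (log2 ratio -2.66). Clec7a, the beta-glucan receptor Dectin-1, was at 8386.9 and 3715.4 (log2 ratio -1.17). Clec4n, Dectin-2, was bright on both arrays at 10152.5 and 7209.3 (log2 ratio -0.49). The galactose-type lectin genes Clec10a, at 232.9 and 2566.8 (log2 ratio 3.46), and Mgl2, at 534.1 and 5721.2 (log2 ratio 3.42), were among the higher ones, and the mannose receptor gene Mrc1 was lower (log2 ratio -2.36). Asgr2, a subunit of the asialoglycoprotein receptor, went from 103.1 to 4476.1 (log2 ratio 5.44) and Cd209c, a relative of DC-SIGN, from 53.3 to 983.1 (log2 ratio 4.21). Cd209a, the usual marker of this family on monocyte-derived DCs, was dim at 61.4 and 96.2 (log2 ratio 0.65).

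Smaller receptor families also held members at both ends. Of 11 measured Fc receptor genes 4 were higher and 1 lower (median log2 ratio 0.77), with the neonatal receptor gene Fcgrt at 397.0 and 2195.5 (log2 ratio 2.47). Fcgr3 was near equal at 5372.2 and 5398.7 (log2 ratio 0.01), and Fcgr4 stood at 398.2 and 184.7 (log2 ratio -1.11). Of 12 Siglec and related sialic acid receptors 5 were higher and 2 lower (median 0.57). Siglece, an inhibitory receptor, was at 3.2, below the floor, and 217.7 (log2 ratio at least 2.91), and Cd300ld, an activating receptor, went from 920.4 to 293.2 (log2 ratio -1.65). Of 9 SLAM family genes 3 were higher and 4 lower (median 0.13, and -0.06 and -0.62 with 75th percentile scaling and a floor at the 75th percentile). Slamf9 stood at 381.2 and 1984.9 (log2 ratio 2.38), whereas Ly9 went from 529.3 to 23.8, below the floor (log2 ratio -4.19 or lower), and Slamf8 from 859.7 to 128.8 (log2 ratio -2.74).

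Genes of antigen presentation by MHC class II were higher in LXR-DKO cells: of 17 measured, 8 were at least 2-fold higher and 2 lower (median log2 ratio 0.94). Ciita, the coactivator that switches these genes on, had signals of 80.6 in WT and 1239.7 in LXR-DKO cells (log2 ratio 3.94), and its 3 probe sets lay between 2.31 and 3.94. The chains themselves were bright on both arrays. H2-Ab1 stood at 2493.5 and 8527.1 (log2 ratio 1.77), H2-Eb1 at 3801.2 and 8866.2 (log2 ratio 1.22) and H2-Aa at 5932.0 and 11368.8 (log2 ratio 0.94). Of the genes that load peptide onto these chains, H2-DMb2 was higher, at 775.0 and 5269.9 (log2 ratio 2.77), and H2-DMa, at 3499.0 and 6602.3 (log2 ratio 0.92), did not pass 2-fold. H2-Oa and H2-Ob encode the modulator of that step, with H2-Oa at 173.0 and 1942.5 (log2 ratio 3.49) and H2-Ob at 78.2 and 1295.8 (log2 ratio 4.05). The invariant chain gene Cd74 was at 7831.8 and 10329.7 (log2 ratio 0.40). The 2-fold lower members act in processing or turnover: Lgmn, a lysosomal endopeptidase, stood at 4107.4 and 1494.3 (log2 ratio -1.46), and Marchf1, which removes class II from the surface, at 1295.7 and 641.8 (log2 ratio -1.01). The 3 probe sets of Rfxank, a subunit of the complex that recruits Ciita, disagreed, at 1.06, -0.28 and -1.24.

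The Y box, a conserved element of class II promoters searched as CTGATTGG on both strands, was found in 3 of 12 genes of the list with a promoter, 25%, beside 6.43% of measured genes and 4.7% of all. The stretches are shown because they are the matches found in this list, in H2-Eb1 and H2-Oa, which passed 2-fold, and in H2-Aa, which did not, with 10 bases on each side, the match in capitals and each read on the strand of its gene. They lie at chr17:34287857-34287884 (minus) for H2-Aa, chr17:34305795-34305822 (plus) for H2-Eb1 and chr17:34092323-34092350 (plus) for H2-Oa, from RefSeq on GRCm38.p6.
H2-Aa: agagaattttCTGATTGGttctggcgag
H2-Eb1: tcctttgatgCTGATTGGctcccagcac
H2-Oa: gagaactgctCTGATTGGctgcttaccg
The match begins 51 bases before the start in H2-Aa, 62 in H2-Eb1 and 46 in H2-Oa, in the direction of the gene.

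Class I presentation differed little, with 3 of 16 measured higher, none lower and a median of 0.10 that turned to -0.08 when arrays were scaled to the 75th percentile. The higher members were the peptide transporter genes Tap1, at 191.3 and 798.9 (log2 ratio 2.06), and Tap2, at 304.0 and 959.3 (log2 ratio 1.66), and the immunoproteasome gene Psmb9, at 672.7 and 1867.6 (log2 ratio 1.47). The heavy chain gene H2-K1 stood at 5548.4 and 6067.5 (log2 ratio 0.13) and the light chain gene B2m at 8236.7 and 6874.0 (log2 ratio -0.26).

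Genes listed as ones that DCs switch on as they mature were higher in LXR-DKO control cells. Of 22 measured, 14 were at least 2-fold higher, none was lower, and the median log2 ratio was 1.72. Ccr7, the receptor that guides DCs to lymph nodes, stood at 201.3 and 1189.3 (log2 ratio 2.56), and Fscn1, the actin-bundling protein of mature DCs, at 667.0 and 3408.3 (log2 ratio 2.35), with 4 probe sets between 1.56 and 3.98. Cd83, a maturation marker, went from 217.8 to 956.5 (log2 ratio 2.13), Cd86, a costimulatory ligand, from 481.8 to 1656.1 (log2 ratio 1.78) and Cd40 from 67.4 to 211.4 (log2 ratio 1.65). On the WT array with LPS, Ccr7 read 229.8, Fscn1 640.6, Cd83 384.9, Cd86 656.7 and Cd40 331.1. Ccr7 and Fscn1 thus stayed near their WT control signals there. Whether the list tracks maturation in these cultures was not tested. Other members were flat on the probe set used, with Cd80 at 234.2 and 227.6 (log2 ratio -0.04) and Il15 at 110.1 and 108.3 (log2 ratio -0.02). Other measured probe sets of Cd80 gave 0.33 and 1.19. Il12b was near the floor on both arrays, at 21.7 and 34.9 (log2 ratio at least 0.27).

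Costimulatory and coinhibitory ligands were split, with 5 of 19 measured higher and 5 lower (median log2 ratio 0.07, which turned to -0.12 under scaling to the 75th percentile). Icosl, the ligand of ICOS, stood at 104.1 and 666.2 (log2 ratio 2.68). On the lower side, Cd274, the inhibitory ligand PD-L1, went from 1846.3 to 730.0 (log2 ratio -1.34), Cd200 from 775.0 to 112.5 (log2 ratio -2.78) and Cd276 from 189.7 to 3.2, below the floor (log2 ratio -2.71 or lower). The related ligand gene Pdcd1lg2 was near equal at 228.9 and 280.2 (log2 ratio 0.29).

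Of 39 measured transcription factors of myeloid and lymphoid lineages 13 were higher and 6 lower (median log2 ratio 0.46). Irf4, a factor of DC subsets, stood at 313.1 and 2150.8 (log2 ratio 2.78), and Irf8 at 653.5 and 1477.8 (log2 ratio 1.18). Runx3 was at 203.1 and 968.2 (log2 ratio 2.25) and Bcl6, a repressor, at 124.4 and 454.1 (log2 ratio 1.87). Myb, a factor of progenitors, went from 43.3 to 209.6 (log2 ratio 2.28). Lower factors included Maf, of macrophages, at 272.9 and 84.8 (log2 ratio -1.69), and Zeb2, at 1188.7 and 340.1 (log2 ratio -1.81). Cebpb, an inducible myeloid factor, stood at 4135.1 and 1720.5 (log2 ratio -1.27), while Cebpa was near equal at 888.1 and 933.4 (log2 ratio 0.07). Batf3, of cross-presenting DCs, was at 291.8 and 402.4 (log2 ratio 0.46).

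Of 12 measured CC chemokine genes 5 passed 2-fold upward and 4 downward (median log2 ratio -0.08, which turned to 0.12 under scaling to hybridisation controls). The 4 lower ones included Ccl7, a monocyte attractant, which went from 205.6 to 29.5 (log2 ratio -2.80). Ccl2, another, went from 3638.8 to 218.5 (log2 ratio -4.06), Ccl3 from 5499.5 to 392.6 (log2 ratio -3.81) and Ccl4 from 1998.8 to 218.2 (log2 ratio -3.20). The 5 higher ones held the monocyte attractant Ccl12 at 10.2, below the floor, and 108.6 (log2 ratio at least 1.91). Ccl5, which draws T cells and monocytes, was at 242.5 and 2109.9 (log2 ratio 3.12). The others were Ccl17 at 935.0 and 7194.6 (log2 ratio 2.94), Ccl22 at 509.8 and 3948.8 (log2 ratio 2.95) and Ccl24 at 8.9, below the floor, and 642.3 (log2 ratio at least 4.47). Of 11 CXC-type genes 2 were higher and 3 lower (median 0.39, and -0.11 and -0.50 with floors at the 25th and 75th percentiles). The neutrophil-recruiting Cxcl3 stood at 899.5 and 162.6 (log2 ratio -2.47) and Cxcl2 at 614.5 and 152.1 (log2 ratio -2.01), while the scavenger receptor and chemokine gene Cxcl16 was at 261.1 and 1009.7 (log2 ratio 1.95).

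Chemoattractant receptors were higher in 9 of 24 measured and lower in 2 (median log2 ratio 0.00, with a sign that depended on the scaling). Beside Ccr7, Ccr2 and Gpr183, P2ry6, a receptor for UDP, stood at 599.0 and 2482.3 (log2 ratio 2.05), and Cysltr1, a leukotriene receptor, at 195.1 and 731.8 (log2 ratio 1.91). Ccr1 was bright and near equal at 4238.6 and 3833.4 (log2 ratio -0.14), and Cxcr4 went from 849.2 to 421.7 (log2 ratio -1.01). Of 17 measured integrin subunit genes 3 were higher and 1 lower (median 0.10, negative under 4 of the alternative settings). Itgb7, the partner of Itgae in the mucosal integrin, stood at 200.3 and 1763.2 (log2 ratio 3.14), and Itgb3, of osteoclasts and platelets, at 112.1 and 40.3 (log2 ratio -1.48).

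Among 48 measured genes of the actin cytoskeleton and of migration, 11 were higher and 3 lower (median log2 ratio 0.37). Lsp1, a leukocyte actin-binding protein, stood at 1057.7 and 5716.1 (log2 ratio 2.43), and Marcksl1, a membrane-actin linker, at 273.8 and 1498.2 (log2 ratio 2.45). Structural members such as Actb, at 8616.0 and 8995.1 (log2 ratio 0.06), were near equal. Rhob, an early-response GTPase, went from 4338.2 to 906.2 (log2 ratio -2.26), and Myo1e, a membrane motor, from 757.2 to 193.3 (log2 ratio -1.97). The probe sets of Ezr, ezrin, opposed each other at 1.35 and -1.50.

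Sensors of microbes leaned lower. Of 19 measured Toll-like receptor and adaptor genes 7 were at least 2-fold lower and 1 higher (median log2 ratio -0.40), and of the 11 receptors themselves 4 were lower and none was higher (median -0.86). Tlr13, a sensor of bacterial RNA, stood at 2522.3 and 866.9 (log2 ratio -1.54), and Tlr7, a sensor of viral RNA, at 501.8 and 88.5 (log2 ratio -2.50). Tlr4, the LPS receptor, was at 971.0 and 515.1 (log2 ratio -0.91), and its coreceptor gene Ly96, encoding MD-2, at 372.3 and 166.3 (log2 ratio -1.16). The other LPS-binding partner, Cd14, stood at 2727.4 and 4081.6 (log2 ratio 0.58). Ly86, encoding MD-1, was the member that was higher, at 213.8 and 2137.1 (log2 ratio 3.32), while its partner gene Cd180 went from 208.1 to 90.8 (log2 ratio -1.20).

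NF-kappaB genes leaned the other way, with 6 of 25 measured higher and 1 lower (median log2 ratio 0.62), and all 4 measured subunits in the list above 0. Relb, a subunit of the alternative pathway that is needed in DCs, stood at 75.2 and 346.5 (log2 ratio 2.20), its partner gene Nfkb2 at 108.7 and 291.6 (log2 ratio 1.42) and Rela at 767.7 and 1432.9 (log2 ratio 0.90). Nfkbiz, an inducible regulator, went from 38.9 to 275.8 (log2 ratio 2.83). Tnfaip3, the feedback inhibitor A20, was the lower member at 758.2 and 324.5 (log2 ratio -1.22), and Nfkbia was near equal at 4943.5 and 4525.3 (log2 ratio -0.13).

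Immediate early genes were lower in 10 of 29 measured and higher in 3 (median log2 ratio -0.45). Of 10 AP-1, EGR and ATF3 factors 5 were lower and none was 2-fold higher. Beside Fos, Atf3, a stress-induced repressor, went from 2900.1 to 365.8 (log2 ratio -2.99), and Fosl1 from 101.5 to 1.8, below the floor (log2 ratio -1.81 or lower). Jun was near equal at 1020.6 and 1071.5 (log2 ratio 0.07) and Junb stood at 265.8 and 406.6 (log2 ratio 0.61). Phosphatases that end MAP kinase signals went apart, with Dusp1 at 1428.9 and 615.2 (log2 ratio -1.22), Dusp4 at 256.4 and 22.3, below the floor (log2 ratio -3.15 or lower), and Dusp5 at 165.0 and 983.6 (log2 ratio 2.58). Sgk1, an inducible kinase, stood at 3895.6 and 667.6 (log2 ratio -2.54).

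Inflammatory cytokines and growth factors were lower in 9 of 22 measured and higher in 6 (median log2 ratio -0.55). Il6 was near the floor on both arrays, at 29.3 and 32.7 (log2 ratio 0.16), and Tnf, of the TNF family, went from 355.8 to 122.5 (log2 ratio -1.54). Growth factors went both ways. The lower ones included Csf1, macrophage colony-stimulating factor, at 1247.3 and 209.0 (log2 ratio -2.58), Pdgfa at 457.0 and 85 (log2 ratio -2.43) and Hgf at 210.5 and 55.4 (log2 ratio -1.93), whereas Pdgfb stood at 57.3 and 183.5 (log2 ratio 1.68). Met, the receptor for Hgf, belonged to the lowest ratios of all genes, at 4027.0 and 169.1 (log2 ratio -4.57). Tgfb1, which restrains T cells, stood at 1605.2 and 3343.0 (log2 ratio 1.06).

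Of 32 measured cytokine receptor and SOCS genes 6 were higher and 4 lower (median log2 ratio 0.23), beside 12.7% and 9.28% of all measured genes. Il2ra, the alpha chain of the interleukin 2 receptor, went from 51.3 to 2361.7 (log2 ratio 5.52, with 4.99 for its other probe set), and Il10ra from 83.6 to 537.9 (log2 ratio 2.69). The receptor chains for GM-CSF, the growth factor of these cultures, were near equal: Csf2ra stood at 2485.0 and 2878.0 (log2 ratio 0.21) and Csf2rb at 9621.5 and 8134.6 (log2 ratio -0.24). Socs3, a feedback inhibitor, went from 1301.4 to 513.3 (log2 ratio -1.34), and Socs2 from 1016.1 to 3619.5 (log2 ratio 1.83).

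The interleukin 1 family and inflammasome genes were split, 7 of 20 measured higher and 5 lower (median log2 ratio -0.03, positive under 2 of the alternatives). Both chains of the interleukin 18 receptor were higher, Il18r1 at 6.5, below the floor, and 1417.4 (log2 ratio at least 5.62), and Il18rap at 56.5 and 602.6 (log2 ratio 3.41), whereas the ligand gene Il18 stood at 706.5 and 316.5 (log2 ratio -1.16). The receptor antagonist Il1rn went from 5286.5 to 1193.4 (log2 ratio -2.15), with 3 probe sets between -3.55 and -2.15, and the decoy receptor Il1r2 from 896.4 to 3196.0 (log2 ratio 1.83). Nlrp3, an inflammasome sensor, was at 150.2 and 475.5 (log2 ratio 1.66). Casp1, the caspase that processes interleukin 1 beta, stood at 1359.6 and 520.9 (log2 ratio -1.38) and Casp4 at 318.2 and 11.3, below the floor (log2 ratio -3.46 or lower).

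In the TNF superfamily 5 of 21 measured were higher and 4 lower (median log2 ratio 0.10). Tnfsf8, the ligand of CD30, was at 27.6, below the floor, and 820.7 (log2 ratio at least 4.83), and Ltb, lymphotoxin beta, at 104.1 and 1752.8 (log2 ratio 4.07). Tnfrsf1b, a TNF receptor, went from 1152.8 to 443.9 (log2 ratio -1.38), whereas Tnfrsf1a was near equal at 1195.6 and 1265.2 (log2 ratio 0.08). In the prostaglandin and leukotriene pathway 8 of 23 measured were lower and 3 higher (median -0.40, and 0.05 with a floor at the 75th percentile). Lower members included the receptor gene Ptger2 at 880.9 and 180.9 (log2 ratio -2.28) and the cyclooxygenase gene Ptgs2 at 119.3 and 16.2, below the floor (log2 ratio -2.05 or lower). Alox5, which opens the leukotriene branch, stood at 584.5 and 1409.8 (log2 ratio 1.27), and its activator Alox5ap was near equal at 6509.6 and 7101.2 (log2 ratio 0.13).

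The type I interferon response held 12 of 31 measured genes past 2-fold upward and 3 downward (median log2 ratio 0.68). Stat2, which carries the interferon signal, stood at 159.4 and 667.3 (log2 ratio 2.07), and Irf9, its partner, at 191.5 and 412.8 (log2 ratio 1.11). Usp18, a feedback inhibitor, was at 250.8 and 978.3 (log2 ratio 1.96), and Ifitm3, an antiviral membrane protein, at 2721.8 and 9043.0 (log2 ratio 1.73). Classical antiviral members went both ways. Mx1 stood at 36.6 and 548.7 (log2 ratio 3.91), whereas Rsad2, viperin, went from 202.7 to 59.1 (log2 ratio -1.78), Oas3 from 110.8 to 43.2 (log2 ratio -1.36), and Ifit2 stood at 52.8 and 61.5 (log2 ratio 0.22). Xaf1 was counted as higher from a signal of 13.7, below the floor, and 654.9, but its other probe set went from 200.5 to 48.1. Of 15 interferon-inducible GTPase and Schlafen genes 3 were higher and 1 lower (median 0.04, negative under 2 scalings). Gbp3 stood at 129.6 and 894.9 (log2 ratio 2.79) and Gbp2 at 595.2 and 200.2 (log2 ratio -1.57).

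Of 30 heat shock and unfolded protein response genes 7 were lower and 2 higher, and 22 lay below 0 (median log2 ratio -0.47). The lower members included the ATF4 branch: Atf4 stood at 3121.3 and 1497.6 (log2 ratio -1.06), its target Ddit3, the factor CHOP, at 706.5 and 149.8 (log2 ratio -2.24) and Trib3 at 324.5 and 71.8 (log2 ratio -2.18). Hspa5, the chaperone BiP, was at 8552.3 and 5442.6 (log2 ratio -0.65), and Xbp1, of another branch, at 5607.0 and 7573.7 (log2 ratio 0.43). Of 37 respiratory chain subunit genes 34 lay below 0, though only 3 were 2-fold lower and none was higher (median -0.43). Ndufa4 stood at 3090.1 and 925.3 (log2 ratio -1.74), Cyc1, cytochrome c1, at 2686.9 and 1205.7 (log2 ratio -1.16) and Sdhb, of complex II, at 3826.2 and 1867.1 (log2 ratio -1.04). Of the 16 measured complex I genes in the list 14 lay below 0 and 1 was 2-fold lower, and all 4 listed complex II genes lay below 0.

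In the citric acid cycle and itaconate list 3 of 25 measured were lower and 1 higher (median log2 ratio -0.22). Acod1, which makes itaconate in activated macrophages, went from 993.5 to 61.0 (log2 ratio -4.03). Idh1, isocitrate dehydrogenase, was near equal at 2782.1 and 2540.6 (log2 ratio -0.13). Of 28 glucose transport and glycolysis genes 5 were higher and 3 lower (median 0.09, and -0.10 under scaling to the 75th percentile). The transporters went opposite ways, with Slc2a3 at 122.2 and 771.7 (log2 ratio 2.66) and Slc2a1 at 2512.8 and 1016.7 (log2 ratio -1.31). Lactate carriers did likewise, with Slc16a3 at 120.3 and 485.2 (log2 ratio 2.01) and Slc16a1 at 981.5 and 378.8 (log2 ratio -1.37), while Ldha was near equal at 5566.8 and 5476.9 (log2 ratio -0.02). Fatty acid oxidation had 2 of 27 higher and 3 lower, beside 12.7% and 9.28% of all measured genes (median -0.16, and 0.05 under scaling to hybridisation controls). Acox3, a peroxisomal oxidase, stood at 203.6 and 794.7 (log2 ratio 1.96) and Decr1, a mitochondrial reductase, at 647.0 and 276.4 (log2 ratio -1.23).

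Genes of cell division were slightly higher as lists. Of 37 mitosis and spindle genes 36 lay above 0, 12 were at least 2-fold higher and none was lower (median log2 ratio 0.77). The largest ratio was that of Spag5, a spindle protein, at 83.9 and 231.3 (log2 ratio 1.46), and Mki67, the proliferation marker, stood at 1169.1 and 1855.7 (log2 ratio 0.67). Ccnb2, a mitotic cyclin, was at 635.2 and 1362.8 (log2 ratio 1.10). Of 37 replication and S phase genes 29 lay above 0, 7 were 2-fold higher and none was lower (median 0.49). Lig1, the replicative DNA ligase, stood at 195.2 and 711.6 (log2 ratio 1.87), and the helicase subunit Mcm7 at 1084.6 and 2464.5 (log2 ratio 1.18), while the polymerase clamp gene Pcna was near equal at 5462.9 and 5047.4 (log2 ratio -0.11).

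Genes of alternative activation and arginine metabolism held some of the widest ratios, 7 of 21 measured higher and 4 lower (median log2 ratio 0.29, and -0.01 with suffix-free probe sets only). For 6 of the 21 the ratio is a limit, and the 15 that reached the floor on both arrays had a median of -0.20. Retnla, a secreted protein of alternatively activated macrophages, was at 10.3, below the floor, and 4228.8 (log2 ratio at least 7.19), while Chil3, another such marker, was bright and near equal at 6024.6 and 4987.3 (log2 ratio -0.27). Arg1 and Nos2, the enzymes that compete for arginine, were not measured, and the arginine importer gene Slc7a2 went from 704.5 to 157.0 (log2 ratio -2.17). In the retinoic acid pathway 4 of 15 measured were higher and 2 lower (median 0.27, and -0.09 with suffix-free probe sets only). Beside Aldh1a2 and Rara, Tgm2, transglutaminase 2, which is a target of both retinoic acid and LXR, stood at 799.1 and 3132.7 (log2 ratio 1.97). Cyp26b1, which degrades retinoic acid, went from 142.8 to 7.3, below the floor (log2 ratio -2.30 or lower).

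Outside the lists, the extremes included genes with many probe sets, for which the comparison has an internal check. Of 5620 genes with at least 2 measured probe sets, 676 were counted as higher by the brightest one. In 317 of these every measured probe set was at least 2-fold higher, and in 5 another was at least 2-fold lower. Of 552 such genes counted as lower, 227 were lower on every probe set and 3 had one that was higher. With 3 or more measured probe sets, 19 genes were at least 4-fold higher and 12 at least 4-fold lower on every one. Nectin3, a cell adhesion molecule, stood at 30.1 and 3384.7 (log2 ratio 6.81) with 6 probe sets between 2.10 and 6.84. Tmem176a, an ion channel-like protein of DCs, was at 144.8 and 1817.2 (log2 ratio 3.65) with 3 probe sets from 3.54 to 4.68. Among the lower, Flrt2, an adhesion and guidance protein, went from 1034.8 to 58.6 (log2 ratio -4.14) with 3 probe sets from -4.33 to -4.03. Nampt, which makes NAD from nicotinamide, stood at 3759.8 and 736.8 (log2 ratio -2.35) with 3 probe sets from -2.92 to -2.12. Dio2, which activates thyroid hormone, went from 657.1 to 27.9, below the floor (log2 ratio -4.51 or lower), and Ednrb, an endothelin receptor, from 556.1 to 18.9, below the floor (log2 ratio -4.27 or lower).

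**Figure D4:**
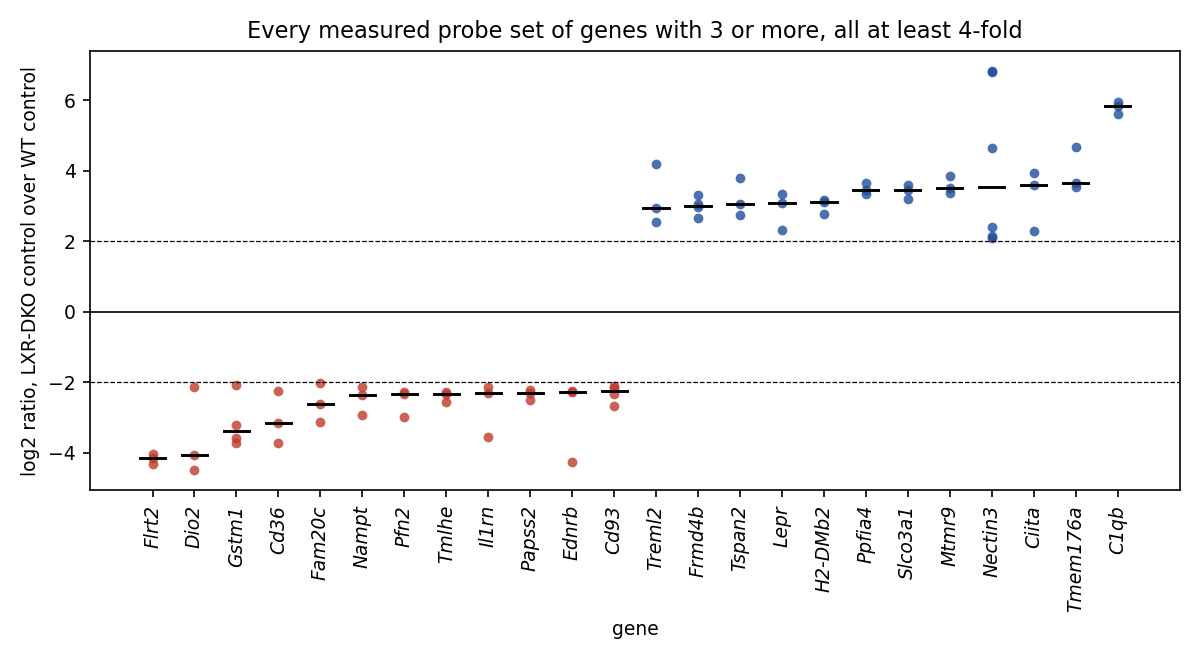
Log2 ratio of LXR-DKO control over WT control for every measured probe set of the 24 genes with 3 or more measured probe sets that were all at least 4-fold in the same direction, choosing the 12 largest medians per direction; points are probe sets, black bars gene medians and dashed lines 4-fold. C1qb has the highest median, with 3 probe sets between 5.62 and 5.97, and the 6 probe sets of Nectin3 spread widely, from 2.10 to 6.84.

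Other genes at the upper end were measured by fewer probe sets. Asb2, a ubiquitin ligase subunit of DCs, stood at 107.1 and 4233.8 (log2 ratio 5.30), and Aif1, the macrophage protein IBA1, at 148.2 and 2652.6 (log2 ratio 4.16). Fcrls, a scavenger-like Fc receptor homologue, was at 59.2 and 1633.3 (log2 ratio 4.79), and Cd34, of progenitors, at 49.4 and 975.2 (log2 ratio 4.30). Gbp2b, an interferon-inducible GTPase, was at 18.4, below the floor, and 1588.1 (log2 ratio at least 5.78). At the lower end stood Fstl1, a secreted glycoprotein, at 1189.7 and 35.7 (log2 ratio -5.06), and F7, coagulation factor VII, at 2915.1 and 123.1 (log2 ratio -4.57). Npy, a neuropeptide, went from 1354.8 to 68.8 (log2 ratio -4.30), and Lhfpl2, a membrane protein, from 3254.9 to 157.4 (log2 ratio -4.37), with 4 probe sets from -4.37 to -0.45. Cav1, caveolin, was at 555.1 and 21.4, below the floor (log2 ratio -4.26 or lower), and Id3, an inhibitor of helix-loop-helix factors, at 426.9 and 15.7, below the floor (log2 ratio -3.88 or lower).

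In the LPS-treated pair 2141 of 12014 measured genes (17.8%) passed 2-fold upward in LXR-DKO cells and 1053 (8.76%) downward. The pair of LPS-treated arrays shares no array with the control pair and sets the same genotypes side by side under LPS, although cultures of a genotype may come from the same mice. Of the Y-linked genes, Eif2s3y stood there at 721.0 in WT and 384.3 in LXR-DKO cells, and Kdm5d at 98.1 and 93.2. Genotype, sex of the mice and mixture of cells cannot be told apart in this pair either. Across the 9623 genes that reached the floor on every array the genotype ratios had a Pearson r of 0.828 and a Spearman rho of 0.816; these are across genes, which are not independent replicates. Of 1483 genes higher without LPS and measured in both pairs, 1163 (78.4%) were at least 2-fold higher with LPS and 4 were lower, where 18.4% of all 11264 genes measured in both were higher. Of 1081 genes lower without LPS, 693 (64.1%) were lower with LPS and 11 were higher, where 9.21% of all were lower. For genes at least 4-fold apart the shares were 96.9% of 382 and 84.2% of 304. NRF2 targets were lower in 18 of 31 in the LPS pair and higher in 1.

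Some lists differed in size or sign between both pairs, without a test of that difference. Mitosis genes passed 2-fold upward in 12 of 37 without LPS and in all 37 with LPS, where the median log2 ratio was 2.28, and S phase genes in 7 of 37 and 25 of 36. Ccnb2 had a log2 ratio of 1.10 without and 3.57 with LPS. The type I interferon response had a median of 0.68 without and -0.46 with LPS, with 5 genes higher and 11 lower of 33 measured in the latter. Ccl2 had a log2 ratio of -4.06 without and -0.07 with LPS and Ccl3 of -3.81 and -0.45, whereas Ccl4, at -3.20 and -1.25, was 2-fold lower in both pairs. Fabp4 stood at -3.92 and 0.74, and Abca1 at 3.20 and 0.54.

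**Figure D5:**
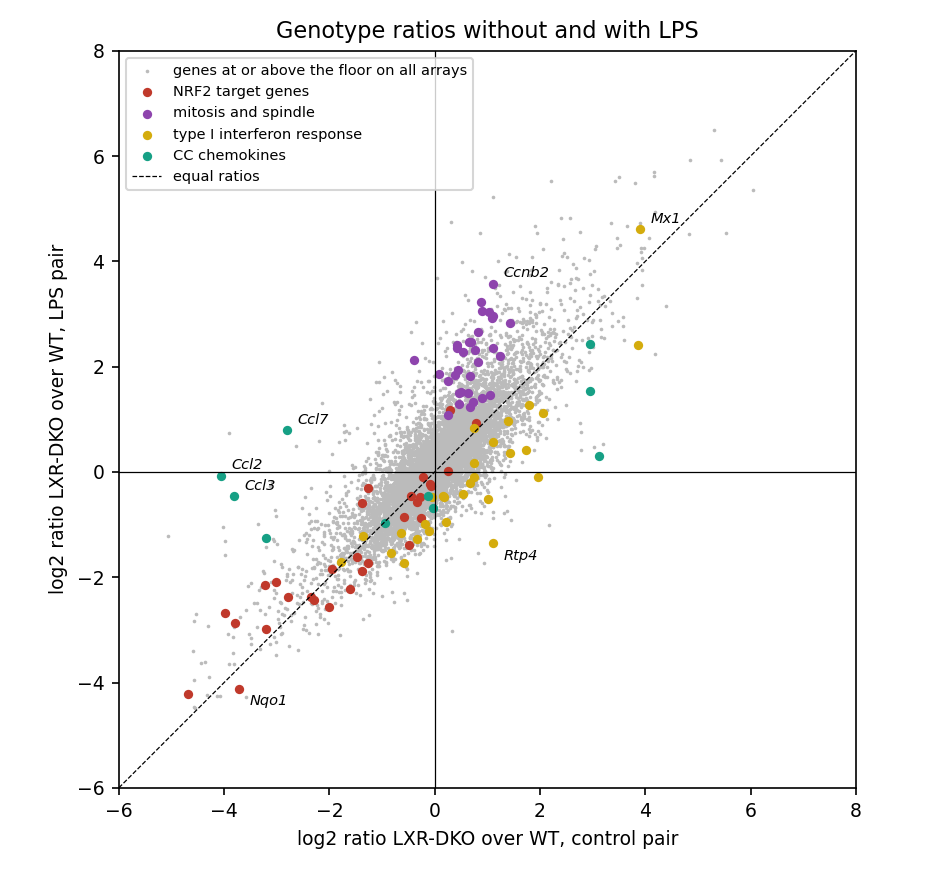
Log2 ratio of LXR-DKO over WT in the control pair (x axis) and in the LPS pair (y axis) for the 9623 genes that reached the floor on every array; the dashed line marks equal ratios and colours mark 4 gene lists. Mitosis genes lie above the line, Ccl2 and Ccl3 lie near 0 on the y axis with control ratios of -4.06 and -3.81, and NRF2 targets such as Nqo1, at -3.71 and -4.12, stay near the line.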

How the data were processed

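RNA of 4 samples, 1 per group, was measured on Affymetrix mouse expression arrays. The deposited table holds linear intensity values that the authors computed with MAS5, per the submitters' processing notes, whose version is not given in the sources used here. Per the labels, total RNA was amplified in a pair of rounds to biotinylated cRNA. All columns of the table were used. Probe sets of a gene were represented by the brightest one on average over the 4 arrays, signals were floored at 28.9, the pooled median, and genes at or above it on at least 1 control array counted as measured. Of 45101 probe sets 64 are controls, 932 carry several symbols and 9160 none, and of 18193 genes 18032 matched the RefSeq gene table. With 1 array per group and no replicates, no test across genes was run. Members and gene lists were chosen with earlier results of these data known.

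Genes were named when they were targeted, among the 25 highest or 25 lowest ratios with both signals at or above the floor, among the 15 largest limits per direction, members of a list, among 10 neighbours on each side of a targeted gene, or among the 12 largest medians per direction of genes with at least 3 probe sets all 4-fold apart. Alternatives covered the scaling, the floor, a pseudocount of 16, the choice of probe set and the threshold, and leaving out genes on X and Y was added after seeing the data. The calculation was tested on simulated data. Python 3.11.15, numpy 2.4.6, pandas 2.3.3, scipy 1.17.1 and matplotlib 3.10.9 were used.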

Additional observations from a re-analysis of the deposited data

Results flagged for a closer look

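For 6 named genes the genotype ratio was at least 2-fold in opposite directions without and with LPS. The difference between the pairs was not tested, and each value rests on 1 array per group. Dusp2, a phosphatase of MAP kinases, had a log2 ratio of -1.15 in the control pair and 1.07 in the LPS pair. Egr3, an early response factor, stood at -1.06 and 1.72. Ly75, the receptor DEC-205, was at -2.85 or lower without LPS and at 1.53 with LPS. Pdgfc, a growth factor, stood at -1.05 and 2.09. Rtp4, an interferon-induced gene, went the other way at 1.12 and -1.35, as did the T cell kinase gene Zap70 at 1.42 and -2.06.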

How the results depend on the processing

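As deposited, 1487 genes passed 2-fold upward and 1088 downward. With a floor at the 25th percentile the counts were 2065 higher and 1863 lower. They moved to 744 and 611 with a floor at the 75th percentile, and to 382 and 305 with a 4-fold threshold. Under the other alternatives the counts ranged from 1127 to 2003 higher and from 805 to 1429 lower. Of 496 named genes at least 2-fold apart, between 360 (floor at the 75th percentile) and 496 (floor at the 25th percentile) were still 2-fold apart under single alternatives. The median of the T and NK cell genes turned to -1.62 with the higher floor. Xaf1 turned to -2.25 under 75th percentile scaling. As the median over probe sets Ezr turned to -0.072 and Rfxank to -0.28, and Rfxank turned to -1.24 with suffix-free probe sets only; the cause was not tested for any of these. The NRF2 median stayed between -1.58 and -1.19, the lysosomal one between -0.90 and -0.50 and the mitosis one between 0.58 and 0.98. Dim signals limit all ratios with 1 side below the floor. No paired analysis was possible because each group has 1 array and the labels give no replicate numbers.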

Other observations

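Genes of cell death and survival were not part of the comparisons above. Of 23 measured BCL2 family and caspase genes 4 passed 2-fold upward in LXR-DKO control cells and 1 downward (median log2 ratio 0.41). Over all measured genes the shares were 12.7% upward and 9.28% downward. The higher ones included Bbc3, the death-promoting protein PUMA, with signals of 82.9 in WT and 402.6 in LXR-DKO cells (log2 ratio 2.28). Bmf, another death-promoting member, stood at 188.7 and 715.8 (log2 ratio 1.92), and Bcl2l11, the protein BIM, at 809.7 and 1637.7 (log2 ratio 1.02). The lower one was the BCL2 family gene Bok, at 61.1 and 6.6, below the floor (log2 ratio -1.08 or lower). The survival gene Mcl1 was near equal at 4417.0 and 4520.8 (log2 ratio 0.03).

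Tissue kallikreins, a cluster of secreted serine proteases on chromosome 7, were far apart: 5 of 6 measured Klk1 genes passed 2-fold upward. Klk1b11 stood at 120.3 and 7939.6 (log2 ratio 6.04) and Klk1b1 at 40.7 and 811.2 (log2 ratio 4.32). Klk1b27 was at 0.8, below the floor, and 894.3 (log2 ratio at least 4.95). Klk1b21 and Klk1b24, chosen after their values were seen, were below the floor in WT cells and at 677.8 and 77.6 in LXR-DKO cells, and Klk1 itself was at 174.8 and 109.8 (log2 ratio -0.67). These genes are near-identical copies, and their probe sets may share targets. The targeted gene Nr1h2 also lies on chromosome 7. Of 904 measured genes on that chromosome 155 were at least 2-fold higher and 70 lower (median log2 ratio 0.18). Genotype and DNA carried along with the targeted locus cannot be told apart for the kallikrein genes, and this was not tested.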
